A study of Mus musculus with 6 samples.

Results

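Integrins are paired adhesion receptors of an alpha and a beta chain, and together with the selectin ligand PSGL-1 they decide where a B cell can stop and stay. The genes described here are Itgal and Itgb2 (the chains of LFA-1), Itga4 with its alternative partners Itgb1 and Itgb7, Itgav and Itgb3, and Selplg, which encodes PSGL-1. They were taken by name, 8 of the 35275 genes listed, and each name matched 1 gene. The libraries are of B cells from spleens of C57BL/6 mice aged 6 to 8 weeks, all of which had been injected 8 days before with sheep red blood cells (SRBC), an antigen whose antibody response needs T cells. One group carried the allele CD40LΔ5 of CD40 ligand, the T cell protein that engages CD40 on B cells, and the other was wild type (WT), with 3 libraries each. The labels do not describe the change that the allele makes, and nothing in them ties a library to its own mouse, so p-values measure the spread between these 6 libraries. All values are FPKM (fragments per kilobase of gene, scaled to library size). Levels of different genes can be set side by side on this scale only as far as the listed gene lengths hold, which was not tested.

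LFA-1 binds ICAM-1 and ICAM-2 and serves lymph node entry, contact with T cells and contact with dendritic cells. The alpha 4 chain pairs with beta 1 to bind VCAM-1 and fibronectin, and with beta 7 to bind MAdCAM-1 of gut vessels. In the mouse spleen LFA-1 and the alpha 4 beta 1 pair hold marginal zone B cells in place. Beta 3 pairs with the alpha v chain in many cells and with the alpha IIb chain in platelets, and CD40 ligand itself is known to bind several integrins.

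The deposited sources do not place the libraries in the same groups. The labels give CD40LΔ5 replicates 1 to 3 and WT replicates 1 to 3. The authors' deposited table of group means has a column MUT, which equals the mean of CD40LΔ5 replicate 2 and WT replicates 1 and 2 to within 3.33e-08 FPKM. Its column WT equals, as closely, the mean of CD40LΔ5 replicates 1 and 3 and WT replicate 3. Both groupings were therefore compared, the labels first. The libraries behind these columns are called the MUT set and the WT set of the table, and a single library is always called by its label. Cd40lg, the altered gene, had 4 to 17 reads in a library. It averaged 0.248 ± 0.204 FPKM by label in CD40LΔ5 and 0.388 ± 0.168 FPKM by label in WT (SD, n = 3; exact two-sided permutation p = 0.3). In the table's grouping it averaged 0.481 ± 0.0526 FPKM in the MUT set and 0.155 ± 0.0437 FPKM in the WT set (SD, n = 3; exact p = 0.1, the smallest possible). Library totals were 24320080 to 27866611 reads. B cell identity was plain in every library, with the 9 B cell markers summing to 4863 to 5690 FPKM, against 36.8 to 47.0 FPKM for 11 T cell markers. Other markers varied more between libraries: those of monocytes and macrophages summed to 124 to 350 FPKM, with the top in WT replicate 1, and those of neutrophils to 47.0 to 596 FPKM, with the top in CD40LΔ5 replicate 3. Plasma cell markers summed to 802 to 3995 FPKM and erythroid markers to 128 to 471 FPKM. By the labels all 8 plasma cell, all 11 macrophage and all 7 erythroid markers tested had lower values in CD40LΔ5. By the table all 8 plasma cell markers had lower values in the MUT set, and all 11 macrophage and all 7 erythroid ones higher values. Of these, 0 were called in either grouping (limma). Germinal centre B cell markers summed to 66.8 to 212 FPKM in CD40LΔ5 and to 48.1 to 199 FPKM in WT, with 9 of 10 at higher values in CD40LΔ5 (median log2 difference 0.12). By the table they came to 48.1 to 161 FPKM in the MUT set and 119 to 212 FPKM in the WT set, and all 10 had lower values in the MUT set (median log2 difference -1.18). The part of such shifts in the values of the 8 genes was not tested.

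The chains that can compete for alpha 4, beta 1 and beta 7, had very different levels, and their genes start in different kinds of sequence. The windows below run from 250 bases before to 50 bases after the start of Itga4, Itgb1 and Itgb7 in RefSeq (build GRCm38.p6) and are shown for that contrast. Capitals mark the dinucleotide CG, which reads the same on both strands.
Itga4 (chr2:79255176-79255475, plus strand): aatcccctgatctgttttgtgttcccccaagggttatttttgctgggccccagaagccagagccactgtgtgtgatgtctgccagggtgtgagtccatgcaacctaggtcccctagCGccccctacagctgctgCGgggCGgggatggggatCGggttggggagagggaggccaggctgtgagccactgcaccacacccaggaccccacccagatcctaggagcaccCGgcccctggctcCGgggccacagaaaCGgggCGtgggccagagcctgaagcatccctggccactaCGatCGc
Itgb1 (chr8:128685404-128685703, plus strand): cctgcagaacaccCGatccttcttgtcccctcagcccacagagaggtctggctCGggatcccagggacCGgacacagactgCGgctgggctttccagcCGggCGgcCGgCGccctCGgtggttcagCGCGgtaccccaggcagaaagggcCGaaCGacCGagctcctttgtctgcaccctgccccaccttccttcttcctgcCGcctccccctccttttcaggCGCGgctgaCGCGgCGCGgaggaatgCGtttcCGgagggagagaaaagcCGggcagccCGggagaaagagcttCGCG
Itgb7 (chr15:102231886-102232185, minus strand): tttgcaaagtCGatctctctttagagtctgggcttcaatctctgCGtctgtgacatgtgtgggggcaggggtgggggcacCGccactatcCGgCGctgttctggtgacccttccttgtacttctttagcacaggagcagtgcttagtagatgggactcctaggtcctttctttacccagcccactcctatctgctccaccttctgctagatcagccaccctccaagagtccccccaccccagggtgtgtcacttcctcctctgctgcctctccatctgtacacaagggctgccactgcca
The Itgb1 window held 27 CG dinucleotides, the Itga4 window 10 and the Itgb7 window 5. Over 32851 RefSeq windows of this length the median was 7, 94.6% held at least 1, and 15.5% held as many as Itgb1 or more. Windows for 4 of the 8 genes were in the table used, the remaining one being Itgav with 24. These are properties of the sequence, and nothing measured here bears on how the promoters are used.

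By level the 8 genes fell into tiers that kept their order in every library. Itgb7, Itgb2 and Itgal stood at the top, with means over the 6 libraries of 73.8, 67.7 and 61.4 FPKM. Itga4 and Selplg followed at 37.8 and 36.7 FPKM, then Itgb1 at 23.7 FPKM, and Itgav and Itgb3 came last at 6.42 and 5.24 FPKM. Between tiers the 6 values did not overlap, as between Itgal and Itga4, whose mean levels had a ratio of 1.62. Within a tier they did: Itga4 exceeded Selplg in only 3 of 6 libraries, while Itgb2 exceeded Itgal in 6 of 6 with means of 67.7 against 61.4 FPKM. The top tier lay above the 89th percentile of the 11252 genes tested, those whose mean reached 1 FPKM, and Itgb3 at the 29.6th.

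**Figure D1:**
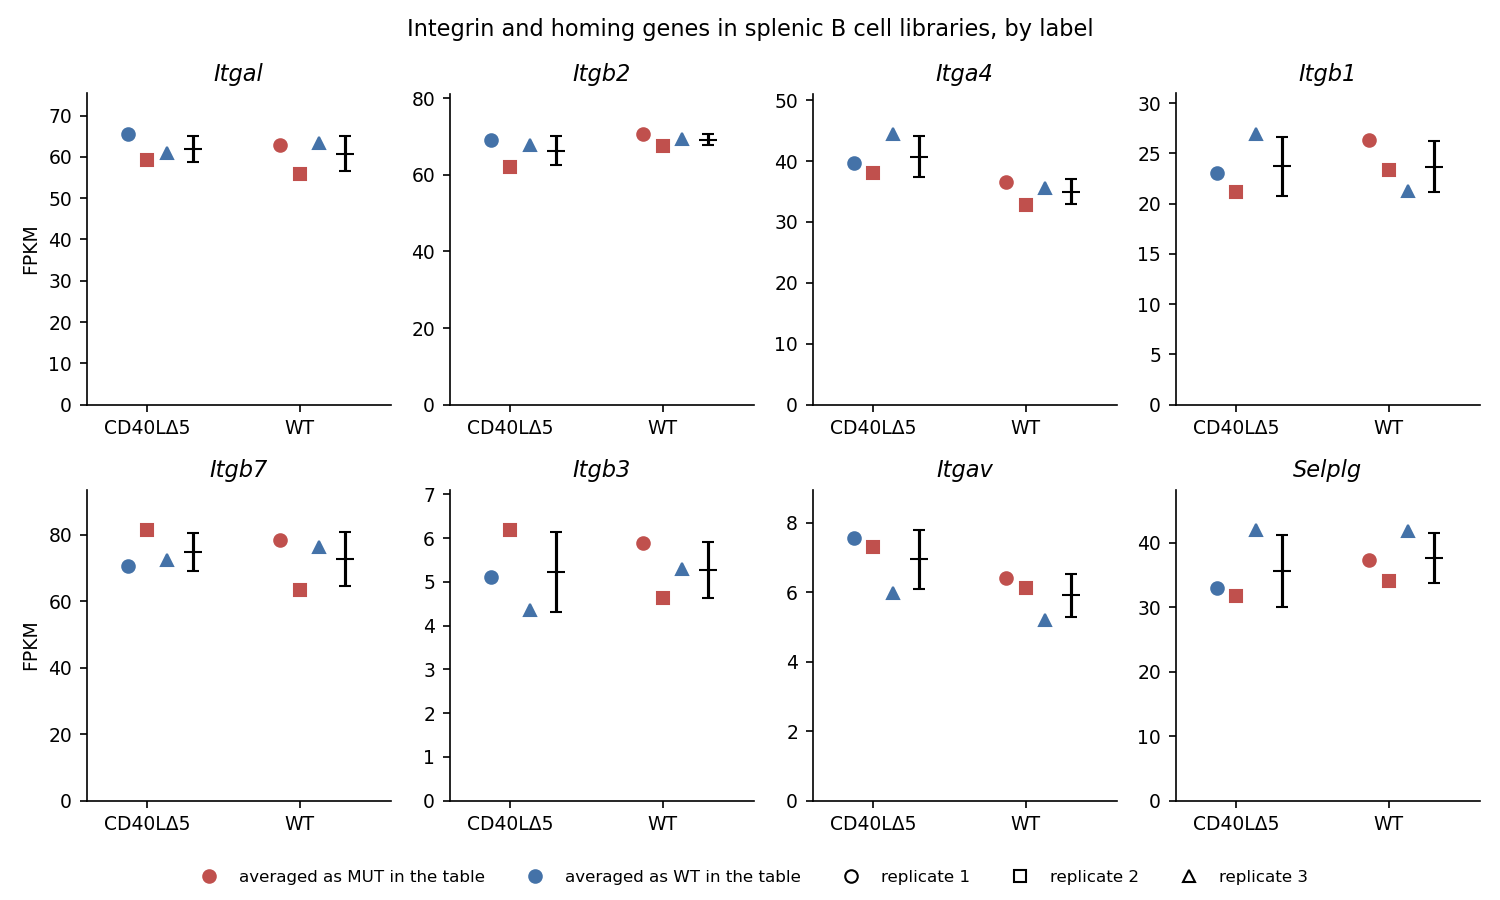
FPKM of the 8 genes (vertical axes, each from 0) in the libraries labelled CD40LΔ5 and WT. Points are single libraries, coloured by their set in the authors' deposited table of means, and the bars are the mean ± SD of each label. Itga4 alone has groups that do not overlap by label, 38.0 to 44.4 FPKM in CD40LΔ5 against 32.7 to 36.5 FPKM in WT.

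Neither grouping set any of the 8 genes apart by the test used. With limma on log2(FPKM + 1), Benjamini-Hochberg adjusted over all 11252 genes, 0 of 8 passed 0.05 by the labels, where 0% of all genes did, and 0 of 8 by the table's means, where 0.0267% did. At an unadjusted p under 0.05 the count was also 0 of 8 in both, against 1.24% and 13% of all genes, and limma voom on reads recovered from the values called none of the 8. By the labels 5 genes had higher and 3 lower values in CD40LΔ5, where 55.5% of all genes had higher values, with a median log2 difference of 0.02 beside 0.01 for all genes. By the table's means, 3 had higher and 5 lower values in the MUT set, where 62% of all genes had higher values, with a median of -0.03 beside 0.05 for all genes. No gene of the 8 had sets without overlap by the table, as 16.9% of all genes did. By the labels the 95% intervals ran from 0.756-fold (Selplg) to 1.40-fold (Itgav), on the scale of FPKM + 1. By the table they ran from 0.736-fold (Selplg) to 1.35-fold (Itgb3). Each interval holds only for its own grouping and for all 6 libraries together. With 1 library left out the log2 difference ran from 0.12 to 0.29 for Itgav by the labels. For Selplg in the table's sets it ran from -0.28 to -0.11. These values lay inside the intervals from all 6 libraries, -0.09 to 0.48 for Itgav by the labels and -0.44 to 0.11 for Selplg by the table. As the grouping is not settled, changes larger than the intervals were not excluded. Changes within the intervals could not be told from none.

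**Figure D2:**
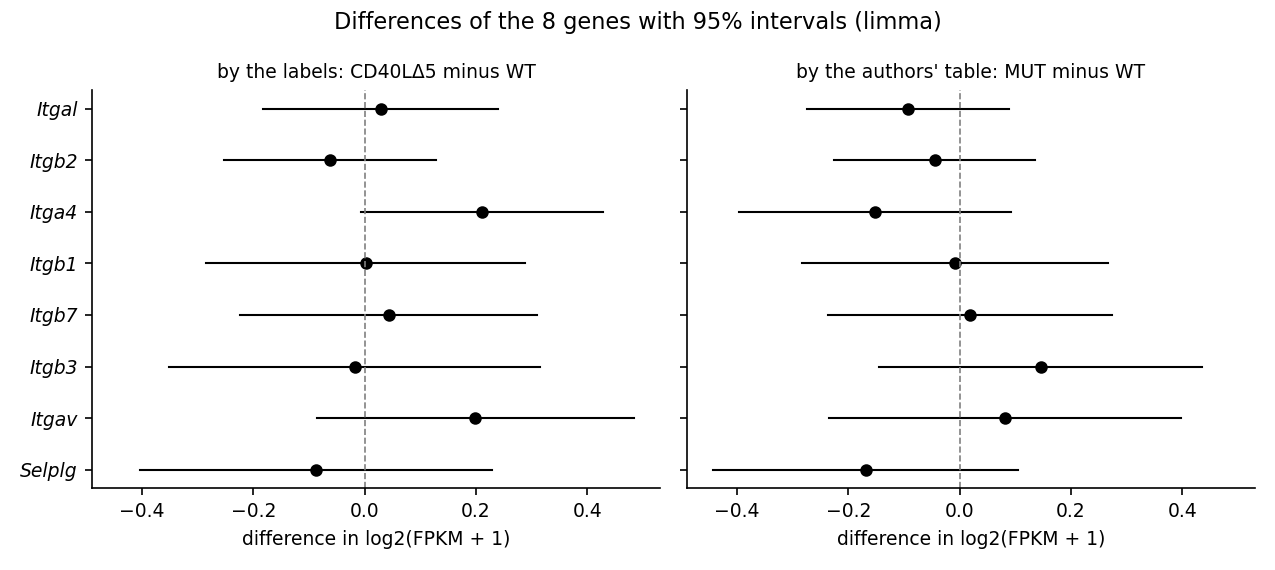
Difference in log2(FPKM + 1) of each gene (horizontal axis) with its 95% interval from limma, by the labels (left, CD40LΔ5 minus WT) and by the authors' deposited table (right, MUT set minus WT set). Every interval includes 0, and the one that comes nearest to leaving it out is that of Itga4 by the labels, from -0.01 to 0.43.

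The genes of LFA-1 were the steadiest. Itgal, the alpha L chain (ENSMUSG00000030830, chromosome 7, 127296260 to 127335137, plus strand), measured 65.5, 59.3 and 61.0 FPKM in CD40LΔ5 replicates 1, 2 and 3, against 63.0, 55.9 and 63.5 FPKM in WT replicates 1, 2 and 3. Its groups overlapped, with the highest value in CD40LΔ5 replicate 1 and the lowest in WT replicate 2. The log2 difference by label was 0.03 ± 0.09 SE (adjusted p = 0.99999 in limma). Itgb2, the beta 2 chain (ENSMUSG00000000290, chromosome 10, 77530252 to 77565708, plus strand), measured 69.1, 62.0 and 67.7 FPKM in the CD40LΔ5 libraries and 70.5, 67.6 and 69.4 FPKM in the WT libraries. CD40LΔ5 replicate 2 was alone below the WT range, by a few FPKM (log2 difference -0.06 ± 0.08 SE). Between the MUT set and the WT set the log2 differences were -0.09 ± 0.08 SE for Itgal and -0.04 ± 0.08 SE for Itgb2. The coefficient of variation over the 6 libraries was 4.47% for Itgb2 and 5.59% for Itgal, where read counting alone gives 1.38% and 1.09%. The median over all 11252 genes was 11.4%, and among the 944 genes within 1.5-fold of Itgb2 in level, 6.99% varied less than it did.

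Beta 2 can also pair with alpha M, alpha X and alpha D, chains of myeloid cells. These were low beside Itgal: Itgad averaged 4.04 and Itgam 3.32 FPKM, and Itgax lay between 0.771 and 2.24 FPKM, so Itgal made up 80.9% to 91.6% of the summed level of the 4 alpha genes, lowest in WT replicate 1. The 4 together came to 95.8% to 110.3% of the Itgb2 level, library by library. Itgad stood at 2.74, 3.19 and 3.84 FPKM in the CD40LΔ5 libraries and at 8.64, 4.02 and 1.79 FPKM in the WT libraries, with its top in WT replicate 1. That library also held the top sum of the macrophage markers, 350 FPKM against 124 to 211 FPKM in the other libraries. None of the 13 macrophage markers found was at 0, and the part of such cells in the Itgad value was not tested. The Itgal to Itgb2 ratio was 0.948, 0.958 and 0.901 in CD40LΔ5 replicates 1, 2 and 3 and 0.892, 0.826 and 0.915 in the WT replicates, with means of 0.936 ± 0.0303 in CD40LΔ5 and 0.878 ± 0.0463 in WT (SD, n = 3; exact two-sided permutation p = 0.2). The means were 0.892 ± 0.0659 in the MUT set and 0.921 ± 0.0241 in the WT set (SD, n = 3; exact p = 0.6).

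Itga4 was the 1 gene of the 8 with groups that did not overlap by label. It encodes the alpha 4 chain (ENSMUSG00000027009, chromosome 2, 79255426 to 79333123, plus strand) and measured 39.7, 38.0 and 44.4 FPKM in CD40LΔ5 replicates 1, 2 and 3, against 36.5, 32.7 and 35.7 FPKM in WT replicates 1, 2 and 3. All CD40LΔ5 values were above all WT values, as was so for 2.98% of the genes tested. The log2 difference was 0.21 ± 0.09 SE (95% interval -0.01 to 0.43; unadjusted p = 0.0550 and adjusted p = 0.99999 in limma). After the trend of values with gene length was removed in each library it was 0.08, and the gene is the longest of the 8 at 9767 bases. By the table the direction turned, with 38.0, 36.5 and 32.7 FPKM in the MUT set against 39.7, 44.4 and 35.7 FPKM in the WT set, which overlap (log2 difference -0.15 ± 0.10 SE; adjusted p = 0.525 in limma). It became -0.07 there with the length trend removed or without CD40LΔ5 replicate 3, and -0.09 without WT replicate 2. Other settings moved it further from 0, to -0.20 with median-of-ratios scaling and -0.23 without WT replicate 3. The antisense neighbour Cerkl, whose reads cannot be told apart from Itga4 reads where they overlap, stood at 0.524 to 0.876 FPKM.

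Of the chains that pair with alpha 4, Itgb7 was about 3 times as abundant as Itgb1. Itgb7 (ENSMUSG00000001281, chromosome 15, 102215995 to 102231935, minus strand), whose product is found mainly on leukocytes, measured 70.7, 81.4 and 72.3 FPKM in the CD40LΔ5 libraries and 78.4, 63.5 and 76.3 FPKM in the WT libraries. Itgb1 (ENSMUSG00000025809, chromosome 8, 128685654 to 128733200, plus strand), which most cell types express, measured 23.1, 21.2 and 26.9 FPKM in the CD40LΔ5 libraries and 26.3, 23.3 and 21.3 FPKM in the WT libraries. The groups overlapped for both. By the labels the log2 differences were 0.04 ± 0.11 SE for Itgb7 and 0.00 ± 0.12 SE for Itgb1, and by the table's means, 0.02 ± 0.11 SE and -0.01 ± 0.12 SE. The sign of each turned in some of the other settings tried. Their ratio, Itgb7 over Itgb1, was 3.07, 3.85 and 2.68 in CD40LΔ5 replicates 1, 2 and 3 and 2.98, 2.73 and 3.58 in WT replicates 1, 2 and 3. It averaged 3.20 ± 0.594 in CD40LΔ5 and 3.09 ± 0.439 in WT (SD, n = 3; exact two-sided permutation p = 0.8), and 3.18 ± 0.590 in the MUT set and 3.11 ± 0.449 in the WT set (SD, n = 3; exact p = 0.9). Itga4 came to 0.349 to 0.448 times the sum of Itgb1 and Itgb7. The listed lengths behind these levels differ, at 9767 bases for Itga4, 3815 for Itgb1 and 2674 for Itgb7.

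Other chains that could use beta 1 or beta 7 were scarcer than alpha 4. Itga6, the alpha 6 chain of a laminin receptor, averaged 7.96 FPKM, while Itgae, the other partner of beta 7, averaged 0.339 FPKM and Itga5, the fibronectin receptor chain, 0.754 FPKM. Of the 15 alpha genes outside the set, 4 reached the level for testing, and 0 were called in either grouping (limma; 0 at an unadjusted p under 0.05 too). By the labels 1 had higher and 3 lower values, with a median log2 difference of -0.11, and by the table's means, 3 higher and 1 lower, with a median of 0.25. Itga6 measured 8.30, 8.75 and 8.68 FPKM in the CD40LΔ5 libraries and 7.91, 5.96 and 8.17 FPKM in the WT libraries, so its groups did not overlap by label either (log2 difference 0.21 ± 0.12 SE; unadjusted p = 0.133 and adjusted p = 0.99999 in limma). All CD40LΔ5 values were higher, as for 2.98% of the genes tested. By the table the log2 difference of Itga6 was -0.15 ± 0.13 SE, the other way. The 7 integrin genes described here made up 90.3% to 93.5% of the summed level of all 26 alpha and beta genes in each library.

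**Figure D3:**
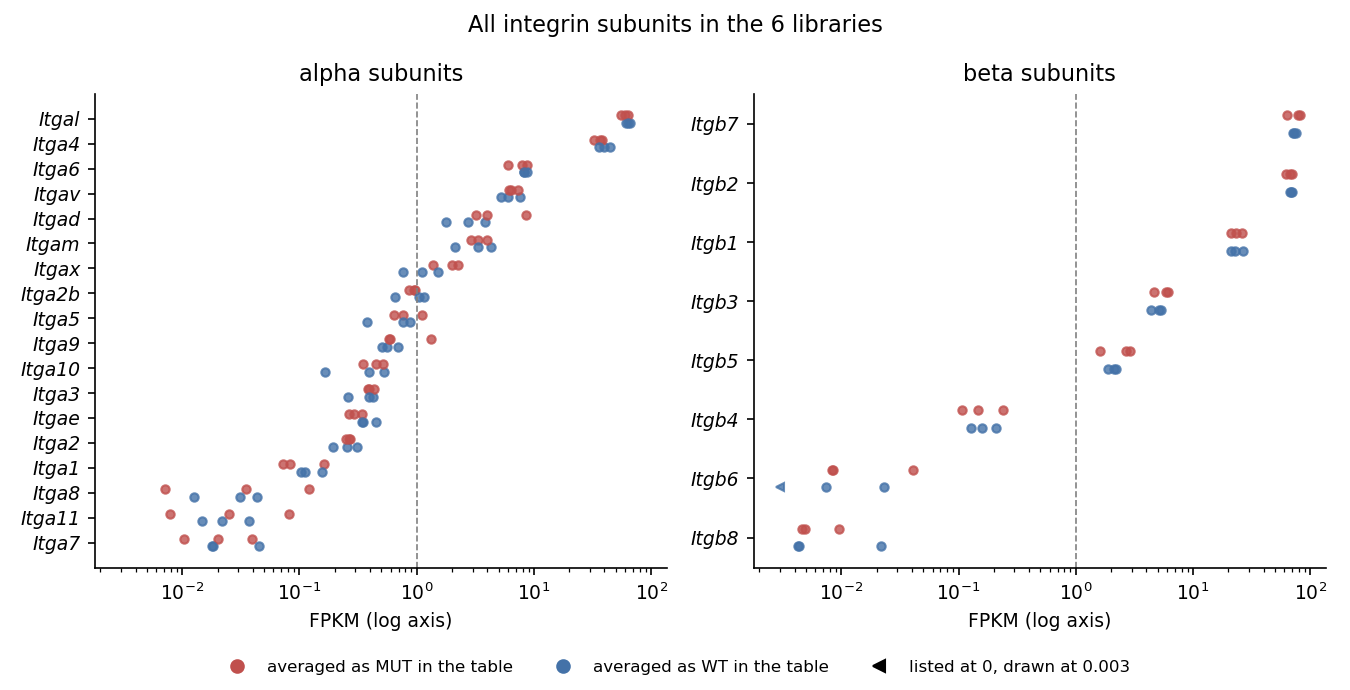
FPKM (log axis) of the 18 alpha and 8 beta integrin genes, ordered by mean, in the 6 libraries. Points are single libraries, coloured by their set in the deposited table of the authors, and the dashed line marks the level of 1 FPKM needed for testing. Itgal and Itga4 lead the alpha genes and Itgb7, Itgb2 and Itgb1 the beta genes.

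Itgav and Itgb3 were the least abundant of the set. Itgav, the alpha v chain (ENSMUSG00000027087, chromosome 2, 83724397 to 83806916, plus strand), is known in mouse B cells for restraining responses through toll-like receptors. It measured 7.54, 7.30 and 5.97 FPKM in CD40LΔ5 replicates 1, 2 and 3, against 6.40, 6.13 and 5.20 FPKM in WT replicates 1, 2 and 3. CD40LΔ5 replicate 3 lay within the WT range and the other two above it (log2 difference 0.20 ± 0.12 SE; adjusted p = 0.99999 in limma). Leaving out 1 library moved it between 0.12 (without WT replicate 3) and 0.29 (without CD40LΔ5 replicate 3). Between the table's sets the log2 difference was 0.08 ± 0.13 SE, and -0.02 without WT replicate 3. Itgb3, the beta 3 chain (ENSMUSG00000020689, chromosome 11, 104608000 to 104670476, plus strand), measured 5.12, 6.18 and 4.36 FPKM in the CD40LΔ5 libraries and 5.90, 4.63 and 5.29 FPKM in the WT libraries. CD40LΔ5 held both its highest and its lowest value (log2 difference -0.02 ± 0.14 SE). Itgb3 averaged 5.57 ± 0.827 FPKM in the MUT set and 4.92 ± 0.496 FPKM in the WT set (SD, n = 3). The log2 difference was 0.15 ± 0.12 SE there (adjusted p = 0.596 in limma). It was 0.05 with quantile normalization, and with 1 library left out it ran from 0.08 (without CD40LΔ5 replicate 3) to 0.25 (without WT replicate 2). These values rest on 651 to 888 reads for Itgb3 and 1012 to 1446 for Itgav in a library, so counting alone gives coefficients of variation of 3.55% and 2.90%, where 13.5% and 13.6% were seen.

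Itgb3 is also a platelet gene, and each marker of platelets was lower than Itgb3 itself. All 10 platelet and megakaryocyte markers were detected in at least 1 library (Gp6 in only 2), and together they summed to 3.36 to 4.94 FPKM in the CD40LΔ5 libraries and to 4.43 to 6.54 FPKM in the WT libraries. Itga2b, the platelet partner of beta 3, averaged 0.943 FPKM, and Pf4, platelet factor 4, was the most abundant of the list at 1.45 FPKM. Itgb3 was highest in CD40LΔ5 replicate 2, where the platelet sum was 4.46 FPKM, and next in WT replicate 1, where that sum had its top. The platelet sum was 4.46 to 6.54 FPKM in the MUT set and 3.36 to 4.94 FPKM in the WT set, so these ranges overlapped. Its part in the Itgb3 difference was not tested. Of the other partners of alpha v, Itgb5 averaged 2.23 FPKM, while Itgb6 and Itgb8 averaged 0.0147 and 0.00827 FPKM. The ratio of Itgav to Itgb3 was 1.47, 1.18 and 1.37 in CD40LΔ5 replicates 1, 2 and 3 and 1.08, 1.32 and 0.983 in WT replicates 1, 2 and 3. Its means were 1.34 ± 0.149 in CD40LΔ5 and 1.13 ± 0.175 in WT (SD, n = 3; exact two-sided permutation p = 0.2), and by the table's means, 1.20 ± 0.120 in the MUT set and 1.28 ± 0.259 in the WT set (SD, n = 3; exact p = 0.7).

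**Figure D4:**
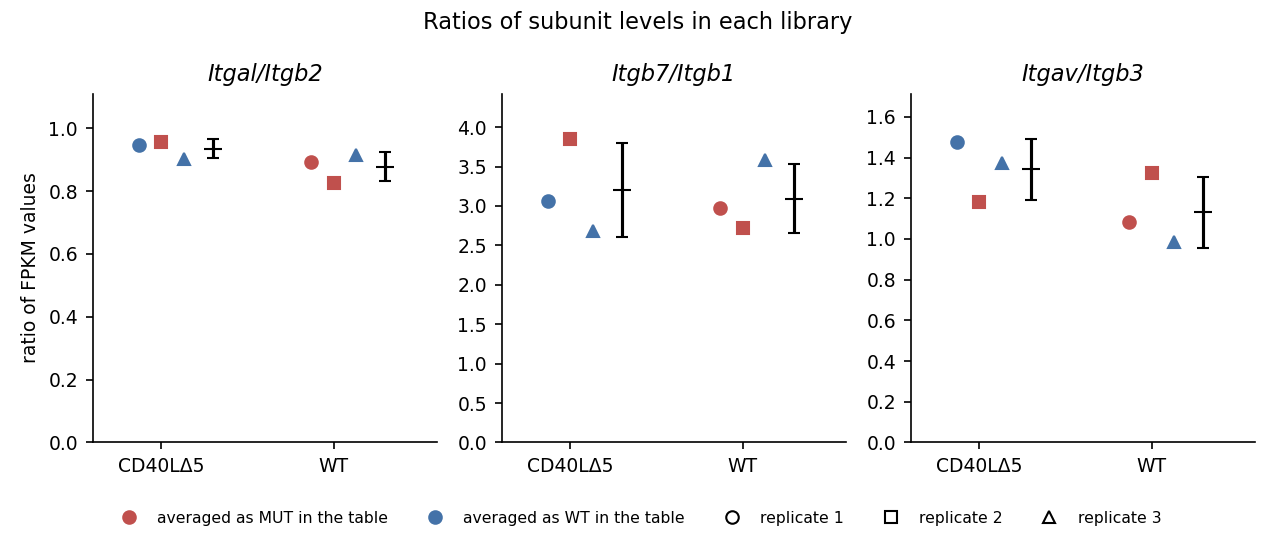
Ratios of FPKM values of paired or competing chains (vertical axes, each from 0) in the libraries labelled CD40LΔ5 and WT, with the mean ± SD of each label. Points are single libraries, coloured as in the plot of FPKM by label. Groups overlap in all 3 panels, and Itgb7 exceeds Itgb1 at least 2.68-fold in each library.

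Of the tested chains outside the set, Itgb5 was, beside Itga6, the one with groups that did not overlap by label. It measured 1.88, 1.62 and 2.13 FPKM in the CD40LΔ5 libraries and 2.89, 2.69 and 2.21 FPKM in the WT libraries (log2 difference -0.32 ± 0.13 SE; unadjusted p = 0.0496 and adjusted p = 0.99999 in limma). All CD40LΔ5 values were below all WT values, as for 1.32% of the genes tested. By the table its log2 difference was 0.13 ± 0.17 SE, the other way. Of 4 further beta genes it alone reached the level for testing.

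Selplg encodes PSGL-1, the ligand of P-selectin (ENSMUSG00000048163, chromosome 5, 113817798 to 113830501, minus strand). It measured 33.0, 31.8 and 42.0 FPKM in CD40LΔ5 replicates 1, 2 and 3, against 37.3, 34.0 and 41.8 FPKM in WT replicates 1, 2 and 3. The replicates numbered 3 of both labels stood above the rest, and the groups overlapped (log2 difference -0.09 ± 0.13 SE). With 1 library left out that difference ran from -0.21 (without CD40LΔ5 replicate 3) to -0.012 (without WT replicate 3). It was nearly as small, -0.013, without CD40LΔ5 replicate 2. Selplg averaged 34.4 ± 2.78 FPKM in the MUT set and 38.9 ± 5.15 FPKM in the WT set (SD, n = 3). The log2 difference was -0.17 ± 0.12 SE there (adjusted p = 0.528 in limma), and with 1 library left out it ran from -0.28 (without CD40LΔ5 replicate 1; unadjusted p = 0.0274 and adjusted p = 0.277 in limma) to -0.11 (without CD40LΔ5 replicate 3). Neutrophils carry much PSGL-1, and the 13 neutrophil markers summed to 47.0, 84.0 and 596 FPKM in the CD40LΔ5 libraries and to 78.1, 72.2 and 346 FPKM in the WT libraries. Ly6g, which defines neutrophils, was at 0 in CD40LΔ5 replicate 2 and highest in CD40LΔ5 replicate 3, at 0.381 FPKM. The tops of Selplg and of these markers thus fell in the same libraries, and in bulk RNA a share of cells and RNA per cell cannot be told apart. The part of neutrophils in the Selplg values was not tested.

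PSGL-1 binds selectins only once enzymes have built its sugars and sulphated it. Of 11 such genes 9 were tested, and 0 were called in either grouping (limma). By the labels 2 had higher and 7 lower values, with a median log2 difference of -0.03. By the table's means, 6 had higher and 3 lower values, with a median of 0.07, and 3 had an unadjusted p under 0.05, where 13% of all genes did. St3gal6, a sialyltransferase, averaged 11.4 ± 0.101 FPKM in the MUT set and 9.33 ± 0.209 FPKM in the WT set (SD, n = 3; log2 difference 0.26 ± 0.07 SE; adjusted p = 0.343 in limma). St3gal4, another sialyltransferase, averaged 3.46 ± 0.295 FPKM in the MUT set and 2.26 ± 0.783 FPKM in the WT set (SD, n = 3; log2 difference 0.48 ± 0.17 SE; adjusted p = 0.356 in limma). C1galt1, which starts the core sugar chain, averaged 31.0 ± 1.36 FPKM in the MUT set and 36.3 ± 1.88 FPKM in the WT set (SD, n = 3; log2 difference -0.22 ± 0.07 SE; adjusted p = 0.355 in limma). Tpst2, one of the tyrosine sulphotransferases, measured 32.0, 30.6 and 36.3 FPKM in the CD40LΔ5 libraries and 39.3, 32.8 and 39.8 FPKM in the WT libraries. Fut7, the fucosyltransferase that completes the selectin-binding sugar, was low in every library, at 0.136 to 0.367 FPKM.

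An integrin must be switched on from inside the cell before it binds firmly: the GTPase Rap1 recruits talin, and talin and kindlin-3 grip the beta chain. The leading genes of this route stood above every integrin gene in mean level. Rap1b averaged 187 FPKM, Fermt3 (kindlin-3) 119 FPKM and Tln1 (talin 1) 97.9 FPKM, while the talin and kindlin genes of other tissues, Tln2, Fermt1 and Fermt2, reached at most 0.107 FPKM (Fermt2 in WT replicate 1). Sipa1, which turns Rap1 off, averaged 204 FPKM. Of 33 genes on this list 27 were tested and 0 were called in either grouping (limma). By the labels 15 had higher and 12 lower values (median log2 difference 0.01), with 0 at an unadjusted p under 0.05. By the table's means, 11 had higher and 16 lower values (median -0.02), with 2 of 27 at an unadjusted p under 0.05, where 13% of all genes had one.

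A count of this size is no more than that share gives, and the 2 genes are described by their values only. They were Fyb and Skap1, adaptor genes known best from T cells. Fyb measured 4.69, 4.80 and 4.85 FPKM in the MUT set and 2.88, 3.95 and 2.89 FPKM in the WT set (log2 difference 0.46 ± 0.12 SE; adjusted p = 0.343 in limma). Skap1 averaged 2.31 ± 0.358 FPKM in the MUT set and 1.57 ± 0.146 FPKM in the WT set (SD, n = 3; log2 difference 0.36 ± 0.13 SE; adjusted p = 0.356 in limma). The 11 T cell markers, none at 0, summed to 39.4 to 47.0 FPKM in the MUT set and to 36.8 to 40.2 FPKM in the WT set, with 8 of 10 tested ones at higher values in the MUT set. The 8 natural killer cell markers moved more, at 48.5 to 58.3 FPKM in the MUT set and 22.7 to 34.5 FPKM in the WT set, with all 7 tested ones at higher values in the MUT set. The macrophage markers came to 174 to 350 FPKM in the MUT set and 124 to 201 FPKM in the WT set, with all 11 tested ones at higher values in the MUT set. The part of these cells in the Fyb and Skap1 values was not tested. WT replicate 2 was lowest for 14 of the 27 genes, Tln1 and Fermt3 among them, as it was for Itgal, Itga4 and Itgb7. Tln1 measured 108, 93.8 and 101 FPKM in the CD40LΔ5 libraries and 103, 80.4 and 101 FPKM in the WT libraries.

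The most abundant ligand genes were those of the ICAM family. Icam2 averaged 78.2 FPKM and Icam1 24.9 FPKM, and of 15 ligand genes 6 were tested, with 3 higher and 3 lower in each grouping and 0 called (limma; 0 at an unadjusted p under 0.05). Vcam1, the ligand of the alpha 4 beta 1 pair and a gene of stroma and red pulp macrophages, varied more than either, at 9.77, 9.11 and 12.2 FPKM in the CD40LΔ5 libraries and 26.9, 12.6 and 6.63 FPKM in the WT libraries. Its top was again in WT replicate 1, and the part of the macrophages was not tested. Madcam1, the ligand of the alpha 4 beta 7 pair, lay at 0.0255 to 0.469 FPKM.

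**Figure D5:**
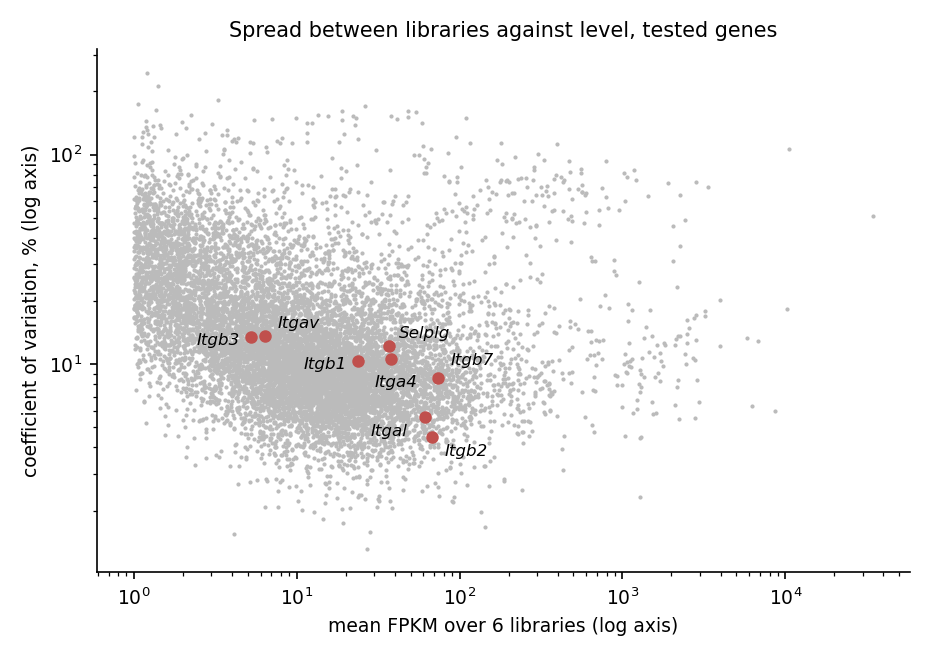
Coefficient of variation over the 6 libraries (percent, log axis) against mean FPKM (log axis) for the 11252 tested genes in grey, with the 8 genes in red. Itgb2 and Itgal lie low in the cloud at 4.47% and 5.59%, and Itgav and Itgb3 reach 13.6% and 13.5%.

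Between libraries each of the 8 genes varied by less than 1.5-fold. The ratio of highest to lowest FPKM was 1.14 for Itgb2 and 1.17 for Itgal, 1.27 for Itgb1, 1.28 for Itgb7, 1.32 for Selplg, 1.36 for Itga4, 1.42 for Itgb3 and 1.45 for Itgav. As a set they were about as variable as other genes, with a median coefficient of variation of 10.4% against 11.4% for all genes tested. Only 3 of the 8 varied less than the median of genes within 1.5-fold of them in level. Some genes moved far more over the same libraries. Rgs13 of germinal centre B cells, picked as an example, measured 29.0, 9.20 and 13.6 FPKM in the CD40LΔ5 libraries and 3.73, 22.4 and 24.9 FPKM in the WT libraries. No library was at the extreme for most of the 8: CD40LΔ5 replicate 3 was highest for 3 of them (Itga4, Itgb1 and Selplg), and CD40LΔ5 replicate 2 and WT replicate 2 were lowest for 3 each.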

How the data were processed

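The members, gene lists and alternatives were chosen with earlier results of these data known. Per the labels' protocols, B cells were isolated magnetically from spleens and 1 µg of total RNA entered a TruSeq kit, which does not mark strand. CASAVA 1.8.2, STAR, DESeq2 and the build mm9 are named, without roles, per the submitters' processing notes. The counting tool is not given in the sources used here. Gene coordinates, printed as the files give them, are those of GRCm38: 24932 of 34490 genes found in its GENCODE annotation had identical ends.

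The deposited unit is FPKM, per library and as the authors' means under MUT and WT. FPKM times gene length, divided by its step, came out whole for 100% of values (tolerance 0.01). These recovered reads served only limma voom and the read numbers quoted, since FPKM is not a count. The main test was limma 3.58.1 in R 4.3.3 (eBayes with a trend, two-sided) on log2(FPKM + 1), over the 11252 genes whose mean reached 1 FPKM, without covariates. A log2 difference on this scale understates changes of low genes. Subunit ratios were compared by exact permutation (scipy 1.17.1), which with 3 against 3 cannot give a p under 0.1. The 6 ratio comparisons were not adjusted further, since none passed.

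Named genes are the 8 members, Cd40lg, and from each list the 2 most abundant and those of smallest p. The genes of most similar profile were to be named for members with a range over 1.5-fold (FPKM + 1), which 0 of 8 reached. Rgs13, Itgae, Itga5, Itgb6, Itgb8, Madcam1, Cerkl, Fut7, Tln2, Fermt1, Fermt2, Fermt3, Tln1, Ilk, Icam4, Lims1, Parvg, Gp6 and Ly6g were named outside this rule, and 1 gene that it names is not reported here. Of 2 entries named Cr2 the more abundant was used, and Adgre1, Hbb-b1 and Jchain were not matched by symbol.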

Additional observations from a re-analysis of the deposited data

How the results depend on the processing

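No alternative called any of the 8 genes: over 248 refits of single genes the smallest limma adjusted p was 0.277, and 4 had an unadjusted p under 0.05 (Itga4 by the labels without a filter on low values and without CD40LΔ5 replicate 2, Itgav by the labels without CD40LΔ5 replicate 3, and Selplg in the table's sets without CD40LΔ5 replicate 1). Differences near 0 changed sign. By the labels, Itgb1 had a log2 difference of -0.022 with median-of-ratios scaling, -0.010 with quantile normalization, -0.014 without immunoglobulin genes, and -7.1e-05 with the length trend removed, where Itgal had -0.0017. In the table's sets Itgb7 had -0.029 with median-of-ratios scaling and -0.024 without immunoglobulin genes. The cause was not tested. Leaving out 1 library gave, by the labels, -0.030 to 0.061 for Itgal, -0.090 to 0.079 for Itgb1, -0.050 to 0.10 for Itgb7 and -0.13 to 0.084 for Itgb3. In the table's sets it gave -0.085 to 0.0068 for Itgb2, -0.087 to 0.081 for Itgb1, -0.049 to 0.13 for Itgb7 and -0.024 to 0.21 for Itgav. Ratio differences then ran from -0.062 to 0.0037 (Itgal over Itgb2, table), -0.22 to 0.36 (Itgb7 over Itgb1, labels), -0.26 to 0.31 (the same, table) and -0.23 to 0.019 (Itgav over Itgb3, table). Over all genes the labels called 0 in each of 16 alternatives. The table's sets called 3, which became 5 with a pseudocount of 0.1, 1 without a filter, with quantile normalization or with voom, 0 with a filter of 5 FPKM, and 1 to 16 with 1 library left out (16 without CD40LΔ5 replicate 1, 13 without WT replicate 2, 1 without CD40LΔ5 replicate 2). With the replicate number as a block the labels again called 0 genes. Same-numbered libraries deviated from their group means with correlations of -0.38, 0.06 and 0.38 for replicates 1, 2 and 3. These values, taken within the groups of the labels, show no common pairing but are too few to exclude one. The table's sets share too few numbers for a block.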

Other observations

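Some receptors that guide B cells to follicles and vessels were expressed above every integrin gene in mean level. Cxcr5, the follicle homing receptor, averaged 140 FPKM and Ccr7, which draws B cells toward the T zone, 74.8 FPKM. Ccr7 was only just above Itgb7 at 73.8 FPKM, and their values overlapped, at 61.3 to 90.6 FPKM for Ccr7 and 63.5 to 81.4 FPKM for Itgb7. Of 9 such genes all were tested and 0 were called in either grouping (limma), with 5 higher and 4 lower in each. Cxcr4, which keeps dark zone B cells in place, was the 1 with an unadjusted p under 0.05 by the labels (0.00992 in limma; adjusted p = 0.99999), where 1.24% of all genes had one. It measured 127, 163 and 134 FPKM in CD40LΔ5 replicates 1, 2 and 3 and 99.6, 93.6 and 113 FPKM in the WT replicates. By the table its log2 difference was -0.11 ± 0.21 SE, the other way. Cd9, a tetraspanin of marginal zone B cells and plasma cells, was the 1 of 9 in the table's sets, where 13% of all genes had one, at 15.3, 20.3 and 20.5 FPKM in the MUT set and 9.50, 14.7 and 8.91 FPKM in the WT set (log2 difference 0.73 ± 0.20 SE; adjusted p = 0.343 in limma).

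Ilk, the adaptor that partners with parvins beneath integrins, was listed at 0 in 5 of 6 libraries and at 0.0162 FPKM in CD40LΔ5 replicate 1. Its partners Lims1 and Parvg averaged 23.4 and 79.6 FPKM. Icam4 was listed at 0 in all 6. Most cells are known to use Ilk, and whether these zeros come from the cells or from how reads were counted was not tested.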
